A study of Homo sapiens with 10 samples.

Results

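Cells carry a set of proteins that recognise RNA or DNA in the wrong place or of the wrong shape, and 10 genes of this system were followed here by name in all deposited tables: DDX58, IFIH1, DHX58, TLR3, EIF2AK2, MAVS, ZBP1, IFI16, AIM2 and TMEM173. They are 10 of 23243 gene symbols that the tables share, and each was measured in every table. The study introduced PcTF, a synthetic transcription factor that joins the histone-reading chromodomain of CBX8 to the red fluorescent protein mCherry and the VP64 activation domain, into human cancer cell lines and measured RNA by sequencing. The osteosarcoma line U-2 OS, the neuroblastoma line SK-N-SH and the leukaemia line K562 each gave 1 library of cells transfected with 2 µg of PcTF plasmid by Lipofectamine LTX and 1 mock library of cells given the same reagents without plasmid. Growth lasted up to 48 h for K562 and up to 96 h for the other lines. A second design used stable U-2 OS derivatives carrying a transgene switched on by doxycycline, with 2 libraries of U2OS-PcTF and 1 of U2OS-dTF, whose truncated protein lacks the histone-binding domain. These stable lines were treated with doxycycline at 1 µg/ml for 96 h.

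The limits of these groups bear on every value below. Plasmid expression was constitutive and only part of the transfected cells made the fluorescent protein, with no sorting, so a bulk level cannot tell fewer responding cells from less RNA per cell. Mock cells received no plasmid, so an effect of PcTF protein and one of plasmid delivery cannot be told apart within a line. K562 was grown for a shorter time than the other lines, so line and time cannot be told apart between K562 and them. Each condition is 1 library, except the U2OS-PcTF line, whose 2 libraries were available here only within a mean, so no difference has a replicate check and the 95% intervals given here cover counting error only.

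RIG-I, encoded by DDX58, and MDA5, encoded by IFIH1, are helicases that bind viral or misplaced RNA in the cytosol and pass the signal to MAVS, an adaptor on mitochondria. LGP2 (DHX58) is a related helicase without signalling domains that tunes the other two, TLR3 reads double-stranded RNA in endosomes, and PKR (EIF2AK2) is a kinase that halts translation when it binds double-stranded RNA. On the DNA side, IFI16 and AIM2 bind DNA directly, AIM2 starting an inflammasome, ZBP1 binds nucleic acid in the Z conformation and can start cell death, and STING (TMEM173) is the membrane adaptor that receives the signal of the DNA sensor cGAS. Both arms switch on interferon genes, and several of the sensors are themselves raised by interferon through an element in their promoters, so that the system can amplify itself.

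That element was looked for in the RefSeq promoter windows of GRCh38.p14, which run from 250 bases before to 50 bases after a transcription start. The interferon-stimulated response element was searched as GAAANNGAAA on either strand (TTTCNNTTTC when read on the other), and, after the sequences had been seen, also with a spacing of 1 base as GAAANGAAA (TTTCNTTTC). Of 35116 windows, 3.57% held the first form, 3.12% the second and 6.40% either form. Windows were found for 7 of the 10 genes, DDX58 (listed as RIGI), IFIH1, TLR3, EIF2AK2, MAVS, IFI16 and AIM2, and 6 of these held a match. MAVS had none, nor had the first of the 2 windows of IFI16. The windows of DHX58, ZBP1 and TMEM173 were not analysed here. The stretches with a match are shown to give the letters behind these matches, and the capitals mark the matched letters.
DDX58: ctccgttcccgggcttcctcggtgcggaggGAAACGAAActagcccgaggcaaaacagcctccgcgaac
IFIH1: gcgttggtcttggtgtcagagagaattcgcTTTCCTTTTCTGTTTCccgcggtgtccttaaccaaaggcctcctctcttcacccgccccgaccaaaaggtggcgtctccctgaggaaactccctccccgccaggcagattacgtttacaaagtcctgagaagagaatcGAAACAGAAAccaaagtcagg
TLR3: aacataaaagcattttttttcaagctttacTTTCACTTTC
EIF2AK2: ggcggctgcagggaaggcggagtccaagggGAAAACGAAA
IFI16: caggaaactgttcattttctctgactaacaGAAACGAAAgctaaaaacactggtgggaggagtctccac
AIM2: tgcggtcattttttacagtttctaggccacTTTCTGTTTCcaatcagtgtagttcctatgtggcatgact

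These stretches are read 5′ to 3′ on the strand of the gene. DDX58 lies at chr9:32526361-32526429 on the minus strand, IFIH1 at chr2:162318685-162318873 (minus), TLR3 at chr4:186069122-186069161 (plus), EIF2AK2 at chr2:37156977-37157016 (minus), IFI16 at chr1:159009823-159009891 (plus) and AIM2 at chr1:159076917-159076986 (minus). With the start counted as 0, the first match begins at -203 for DDX58, -159 for IFIH1, -190 for AIM2 and -54 for IFI16, and those of TLR3 and EIF2AK2, at -4 and -6, lie across the start. IFIH1 stood apart with 3 matches, of which 2 overlap, while each of the other 5 had 1. The match of DDX58 and that of IFI16 have the spacing of 1, and they share the same 9 letters, so 4 sensors matched under the form searched first. After transfection, 4 of these 4 were called higher in U-2 OS (12.0% of all genes compared), as were 4 of 4 for SK-N-SH (5.79%). For K562 the count was 0 (28.6%), with TLR3 and AIM2 at 0 FPKM in both libraries. The U-2 OS call of AIM2 rests on 2 and 7 reads. DHX58, ZBP1 and TMEM173, whose windows were not analysed, were also called higher in U-2 OS, and a relation of match to call was not tested. IFI16, a carrier under the added spacing, was called higher in U-2 OS, not called in SK-N-SH and lower in K562. A match is a description of the letters in the window and does not show that a factor binds there.

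The libraries held an estimated 4.27e+06 to 7.38e+06 reads, recovered from the steps between low FPKM values (read fragments scaled to gene length and library depth), and 13246 to 16089 genes above 0. CBX8, part of PcTF and so a check of the labels, went from 0.610 to 6.43 FPKM in U-2 OS, from 0.287 to 8.85 in SK-N-SH and from 1.59 to 14.3 in K562. The 10 neuroblastoma markers summed to 685 and 658 FPKM in SK-N-SH and to at most 6.55 elsewhere, and the 10 erythroleukaemia markers summed to 4709 and 15979 FPKM in K562 and to at most 4.76 elsewhere. The 9 osteosarcoma markers did not set U-2 OS apart, since they summed to 62.8 FPKM in mock U-2 OS and 494 in mock SK-N-SH. In the U2OS-dTF line they summed to 9.76 FPKM, with 3 of 9 at 0, against 57.3 in the derived U2OS-PcTF mean. Of the usual reference genes, GAPDH ranged from 428 FPKM in mock K562 to 3663 in U2OS-dTF, ACTB from 422 in mock U-2 OS to 2288 in U2OS-dTF and CHMP2A from 25.6 to 135. Within the K562 pair GAPDH went from 428 to 2894 FPKM, 6.75-fold, against 0.878-fold in the U-2 OS pair and 1.45-fold in the SK-N-SH pair. Of 12 reference genes, 3 were 2-fold higher and 1 lower in the K562 pair, and 0 either way in the U-2 OS and SK-N-SH pairs. Immune cell markers summed to at most 8.12 FPKM outside K562. The K562 pair and the comparisons with U2OS-dTF moved far more genes than the other pairs, as the background shares beside each comparison show.

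**Figure D1:**
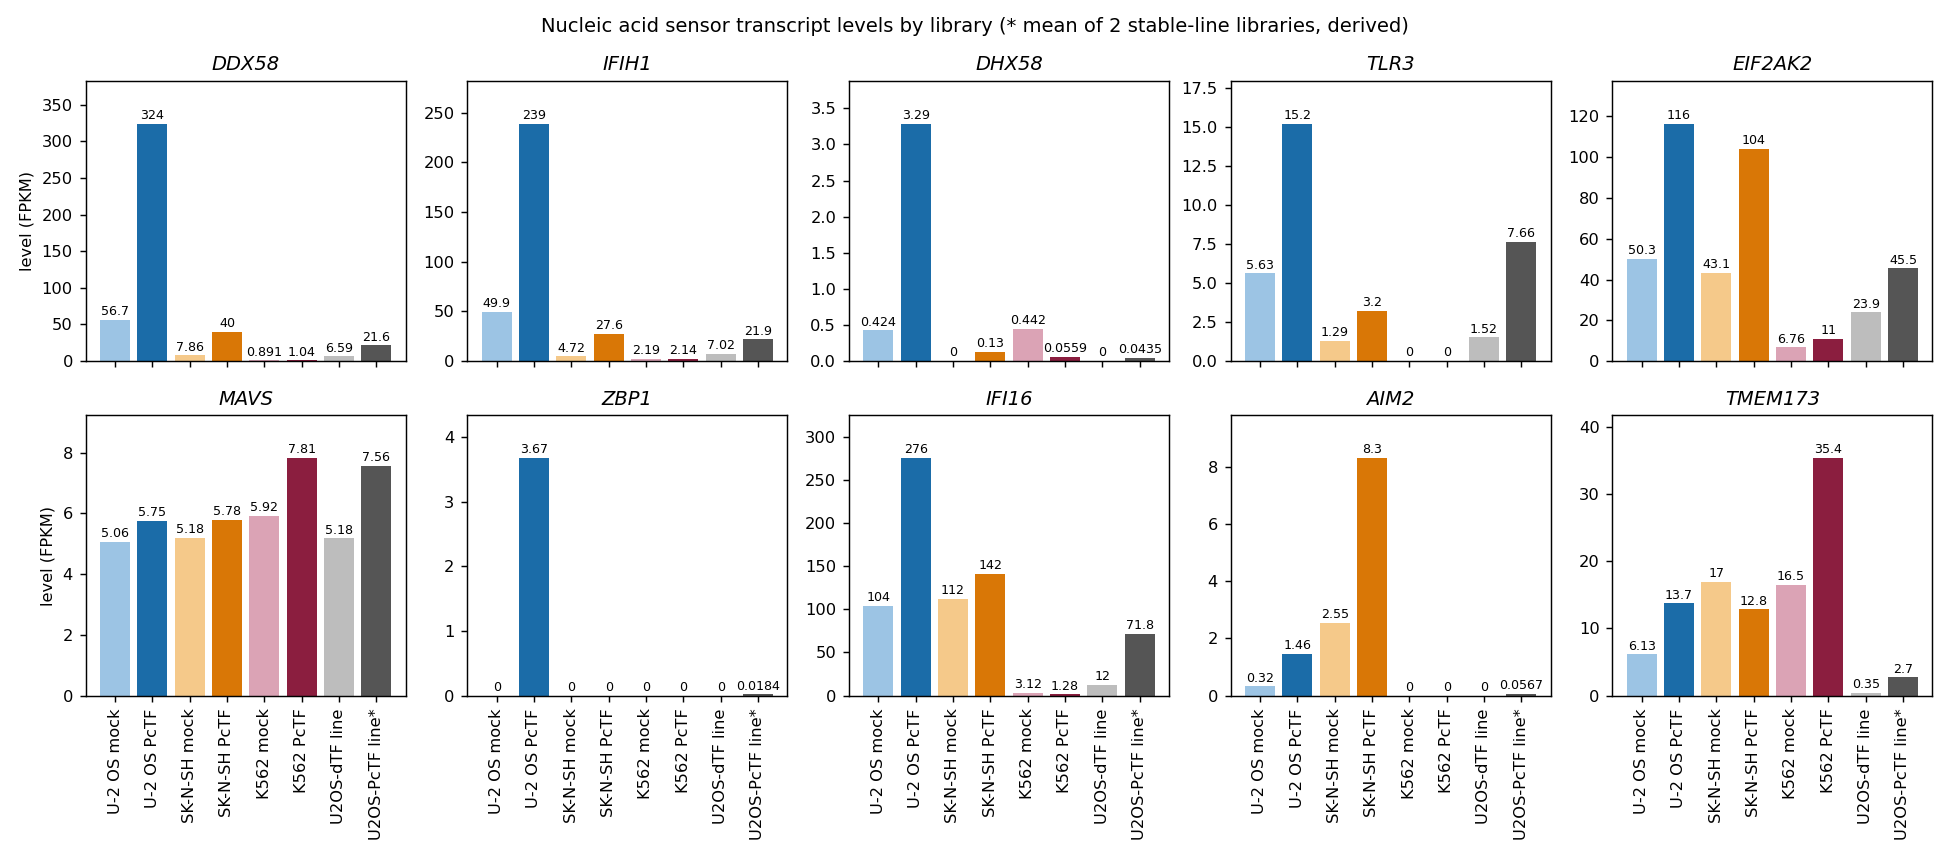
Bars give the FPKM of each sensor (vertical axis, linear from 0, with its own range in each panel) in the 7 single libraries and in the derived mean of the 2 U2OS-PcTF libraries, with the value above each bar. DDX58, IFIH1 and IFI16 stand highest in PcTF-transfected U-2 OS, at 324, 239 and 276 FPKM, while MAVS stays between 5.06 and 7.81 FPKM throughout.

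Before transfection the lines differed widely in the RNA helicases. DDX58 stood at 56.7 FPKM in mock U-2 OS, 7.86 in mock SK-N-SH and 0.891 in mock K562. IFIH1 stood at 49.9, 4.72 and 2.19 FPKM in the same order, and TLR3 at 5.63, 1.29 and 0 FPKM. For these 3 genes the order was U-2 OS, then SK-N-SH, then K562, and every counting interval between neighbours lay clear of no difference. This order was the same when each library was scaled to 12 reference genes. The step from U-2 OS to SK-N-SH was 7.22-fold for DDX58, 10.6-fold for IFIH1 and 4.37-fold for TLR3.

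The other sensors followed other orders. EIF2AK2 was at 50.3 FPKM in U-2 OS, close to the 43.1 of SK-N-SH (a ratio of 1.17), and at 6.76 in K562, which was 6.38-fold below SK-N-SH. IFI16 was at 112 FPKM in SK-N-SH and 104 in U-2 OS, and 33.2-fold lower than the latter in K562, at 3.12 FPKM. Scaled to the reference genes, IFI16 was higher in U-2 OS, at 169 against 134 FPKM, so the order of these lines depends on the scaling. K562 was thus the line with the least of the kinase and of this DNA sensor. TMEM173 broke the pattern, with 17.0 FPKM in SK-N-SH and 16.5 in K562, whose counting interval included no difference, and 6.13 in U-2 OS, 2.69-fold below K562. The reference scaling put TMEM173 at 20.3 FPKM in SK-N-SH, 14.1 in K562 and 9.99 in U-2 OS. U-2 OS was then still lowest but within 2-fold of K562, so the size of these steps depends on the scaling.

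MAVS, the adaptor shared by the helicases, was the most even of the genes above 0 in all lines, at 5.06, 5.18 and 5.92 FPKM in the order of the helicases, and no neighbouring pair differed beyond counting error, although the reference scaling put it at 8.24, 6.19 and 5.06 FPKM. AIM2 was at 2.55 FPKM in SK-N-SH, from 16 reads, 0.320 in U-2 OS, from 2 reads, and 0 in K562. DHX58 rested on 5 reads in mock U-2 OS, 5 in mock K562 and 0 in mock SK-N-SH. ZBP1 was listed at 0 in all 3, where 3 reads would have given 0.318, 0.299 and 0.331 FPKM. The 3 values of a gene come from tables that the authors normalised separately. Summed over the 10 genes, the mock level was 278 FPKM for U-2 OS, 194 for SK-N-SH and 35.8 for K562.

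In U-2 OS, 9 of the 10 sensors were at least 2-fold higher after PcTF transfection and none was 2-fold lower. The background is all 12411 genes that reached 1 FPKM in at least 1 of both libraries, of which 12.0% passed 2-fold upward and 5.59% downward. Among the sensors called, DHX58, ZBP1 and AIM2, at 0.424, 0 and 0.320 FPKM in mock, reached 1 FPKM only in the PcTF library. Entry by that library favours a call upward. The median log2 fold change, here and below of FPKM plus 0.1, was 1.66 over the sensors and 0.08 over all those genes. Without ZBP1, which was at 0 in mock, the sensor median was 1.42. The summed sensor level went from 278 to 998 FPKM, 3.59-fold higher.

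The helicases RIG-I and MDA5 led the RNA sensors in level. DDX58 (hg19 chr9:32455300-32526322) went from 56.7 to 324 FPKM, from 1221 to 6120 reads, a log2 fold change of 2.51 with an interval of 2.42 to 2.60. IFIH1 (chr2:163123589-163175039) went from 49.9 to 239 FPKM, a log2 fold change of 2.26 (2.15 to 2.37). These genes were thus higher still in the line whose mock level was already the highest. DHX58 (chr17:40253422-40264751), the helicase that tunes them, went from 0.424 to 3.29 FPKM, from 5 to 34 reads, a log2 fold change of 2.69 (1.59 to 4.67 on the reads).

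The remaining RNA sensors changed less. TLR3 (chr4:186990309-187006252) went from 5.63 to 15.2 FPKM, a log2 fold change of 1.42 (1.04 to 1.83). EIF2AK2 (chr2:37332284-37384190) went from 50.3 to 116 FPKM, a log2 fold change of 1.21 (1.10 to 1.32). MAVS (chr20:3827446-3856770) went from 5.06 to 5.75 FPKM, with 283 reads in both libraries and a log2 fold change of 0.18 (-0.05 to 0.43). It was the only sensor of the 10 under 2-fold in this line.

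On the DNA side, IFI16 (chr1:158979682-159024945) went from 104 to 276 FPKM, a log2 fold change of 1.41 (1.32 to 1.50), and was the most abundant of the DNA arm in both libraries. TMEM173 (chr5:138855113-138862343), or STING, went from 6.13 to 13.7 FPKM, a log2 fold change of 1.15 (0.69 to 1.63). ZBP1 (chr20:56178902-56195632) went from 0 to 3.67 FPKM, 30 reads, which was at least 11.5-fold higher when the mock level is set to 3 reads. AIM2 (chr1:159032275-159046647) went from 0.320 to 1.46 FPKM, but from 2 to 7 reads, and its interval of -0.40 to 5.30 on the log2 scale included no difference. ZBP1 was above 0 in this library alone among the 7 single libraries.

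In SK-N-SH, 5 of the 8 sensors with 1 FPKM or more in either library were at least 2-fold higher and none was 2-fold lower. Over all 11954 genes of this pair 5.79% were 2-fold higher and 2.69% were 2-fold lower. The median log2 fold change was 1.26 for the sensors and 0.10 for all genes. The 5 were DDX58, IFIH1, TLR3, EIF2AK2 and AIM2, and the summed level went from 194 to 344 FPKM.

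DDX58 went from 7.86 to 40.0 FPKM, a log2 fold change of 2.33 (2.12 to 2.58). IFIH1 went from 4.72 to 27.6 FPKM, a log2 fold change of 2.52 (2.20 to 2.90). Both helicases therefore stayed below the mock level of U-2 OS even after transfection. TLR3 went from 1.29 to 3.20 FPKM (log2 fold change 1.25, 0.54 to 2.14) and EIF2AK2 from 43.1 to 104 FPKM (1.27, 1.16 to 1.38). AIM2 reached its highest level of the series here, from 2.55 to 8.30 FPKM and from 16 to 63 reads, a log2 fold change of 1.66 (0.87 to 2.57).

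The 3 sensors under 2-fold in SK-N-SH were MAVS, IFI16 and TMEM173. MAVS was at 5.18 and 5.78 FPKM, a log2 fold change of 0.15 (-0.06 to 0.38). IFI16, the most abundant sensor of the line, was at 112 and 142 FPKM, a log2 fold change of 0.33 (0.24 to 0.43). TMEM173 was at 17.0 and 12.8 FPKM, a log2 fold change of -0.40 (-0.72 to -0.09), the opposite direction to U-2 OS. DHX58 had 0 and 2 reads and ZBP1 had 0 in both, so that no change of either could be detected at this depth.

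In K562, sensors were called in both directions, as were many other genes. Of the 6 with 1 FPKM or more in either library, 1 was 2-fold higher and 1 was 2-fold lower, while 28.6% of all 11553 genes were 2-fold higher and 11.7% were 2-fold lower. Neither call held throughout, since TMEM173 fell under 2-fold when centred and IFI16, at -0.86, with a pseudocount of 1 FPKM. The median log2 fold change was 0.30 for the sensors and 0.37 for all genes. Genes with 1 FPKM or more in both libraries had a median of 0.28, and values centred on that median are given beside each gene.

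DDX58 was at 0.891 and 1.04 FPKM, from 18 and 34 reads, a log2 fold change of 0.20 (-0.61 to 1.17) that turned to -0.09 when centred. IFIH1 was at 2.19 and 2.14 FPKM, a log2 fold change of -0.03 (-0.69 to 0.64), or -0.32 centred. The helicases were thus low in both K562 libraries and did not change beyond counting error. For each of them the upper end of the interval lay below the lower end of the interval in either of the other lines. These intervals cover counting error only, and line and growth time cannot be told apart here.

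EIF2AK2 was at 6.76 and 11.0 FPKM, a log2 fold change of 0.69 (0.39 to 1.01), or 0.41 centred. MAVS was at 5.92 and 7.81 FPKM, a log2 fold change of 0.39 (0.21 to 0.60), or 0.11 centred. TMEM173 went from 16.5 to 35.4 FPKM, a log2 fold change of 1.10 (0.84 to 1.38), the highest STING level of the series, and fell short of 2-fold at 0.81 when centred. IFI16 went from 3.12 to 1.28 FPKM, from 39 to 25 reads, a log2 fold change of -1.22 (-2.09 to -0.54), or -1.51 centred. Beside it, the osteosarcoma marker sum of these libraries was 26.5 FPKM in mock and 5.25 in PcTF-transfected K562, carried in the mock library by RUNX2 at 9.13 and COL6A3 at 12.3 FPKM, and its part in the IFI16 value was not tested.

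DHX58 had 5 and 1 reads in K562, a log2 ratio of the reads whose interval ran from -8.55 to 0.17. TLR3, ZBP1 and AIM2 were listed at 0 in both libraries, where 3 reads would have given at most 0.227, 0.331 and 0.540 FPKM. Erythroid genes moved within the pair as well, the erythroleukaemia marker sum going from 4709 to 15979 FPKM, and their part in these values was not tested.

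**Figure D2:**
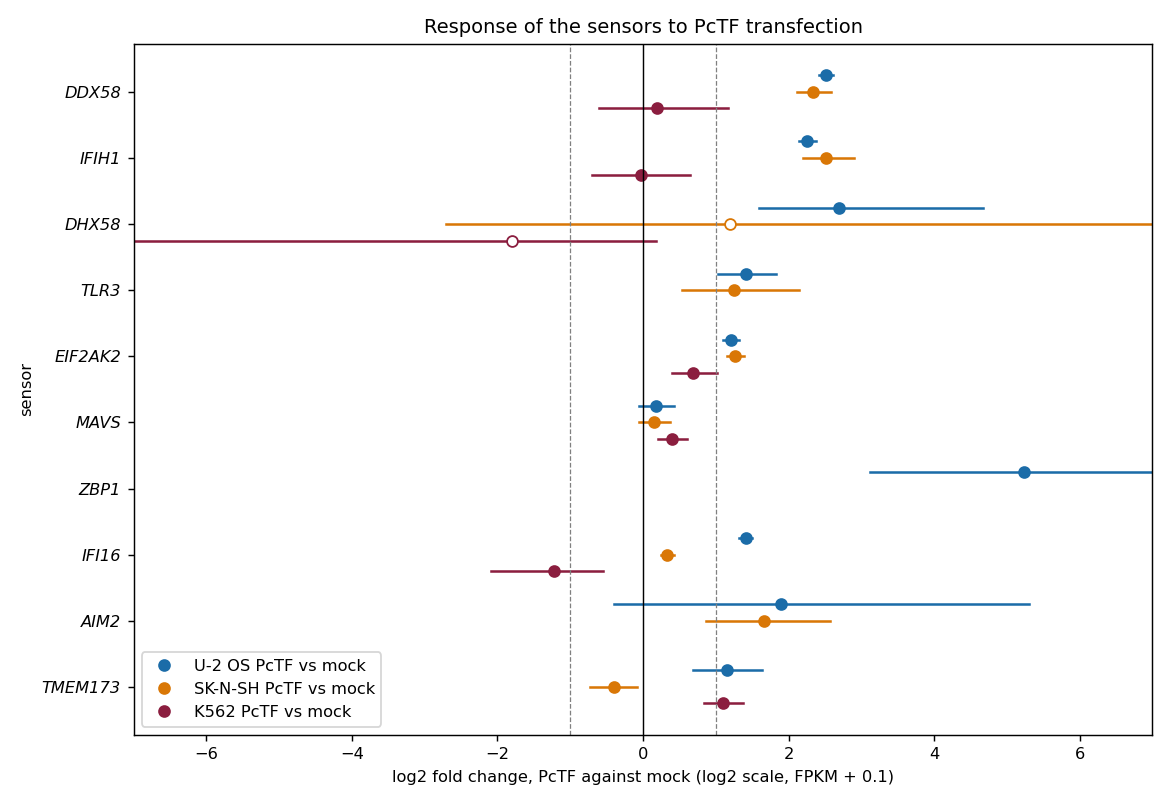
Points give, for each sensor in the 3 lines, the change from mock to PcTF (horizontal axis, log2 of FPKM plus 0.1), bars give the 95% counting interval on the reads, which runs to the edge where it goes past the axis or has no limit, and open points mark genes under 1 FPKM in both libraries. Dashed lines mark 2-fold, and DDX58 and IFIH1 lie past it in U-2 OS (2.51 and 2.26) and SK-N-SH (2.33 and 2.52) and near 0 in K562 (0.20 and -0.03).

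Each sensor's level before transfection was then set beside its change. Across the sensors above 0, Spearman's rho between mock level and log2 fold change came to -0.33 for U-2 OS (10 sensors), -0.23 in SK-N-SH (9 sensors) and 0.86 in K562 (7 sensors). DHX58 is among them though under 1 FPKM in both libraries of SK-N-SH (0 and 2 reads) and of K562 (5 and 1 reads). In K562 it was the lowest of these sensors in both mock level and change. With a pseudocount of 1 FPKM the U-2 OS value reversed to 0.27, so its sign is not read. These are descriptions, since the mock level is part of the fold change and the sensors of a line share both libraries. Within U-2 OS the abundant DDX58 and the scarce DHX58 changed by like amounts, 2.51 and 2.69, while IFI16 at 104 FPKM and TLR3 at 5.63 FPKM changed by 1.41 and 1.42. Between lines, EIF2AK2 had like mock levels of 50.3 FPKM (U-2 OS) against 43.1 FPKM (SK-N-SH), and like log2 fold changes of 1.21 and 1.27. Scaled to the reference genes, its mock levels were 82.0 and 51.5 FPKM, so their likeness depends on the scaling. DDX58 started 7.22-fold higher in U-2 OS than in SK-N-SH and changed by 2.51 and 2.33, with overlapping intervals.

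**Figure D3:**
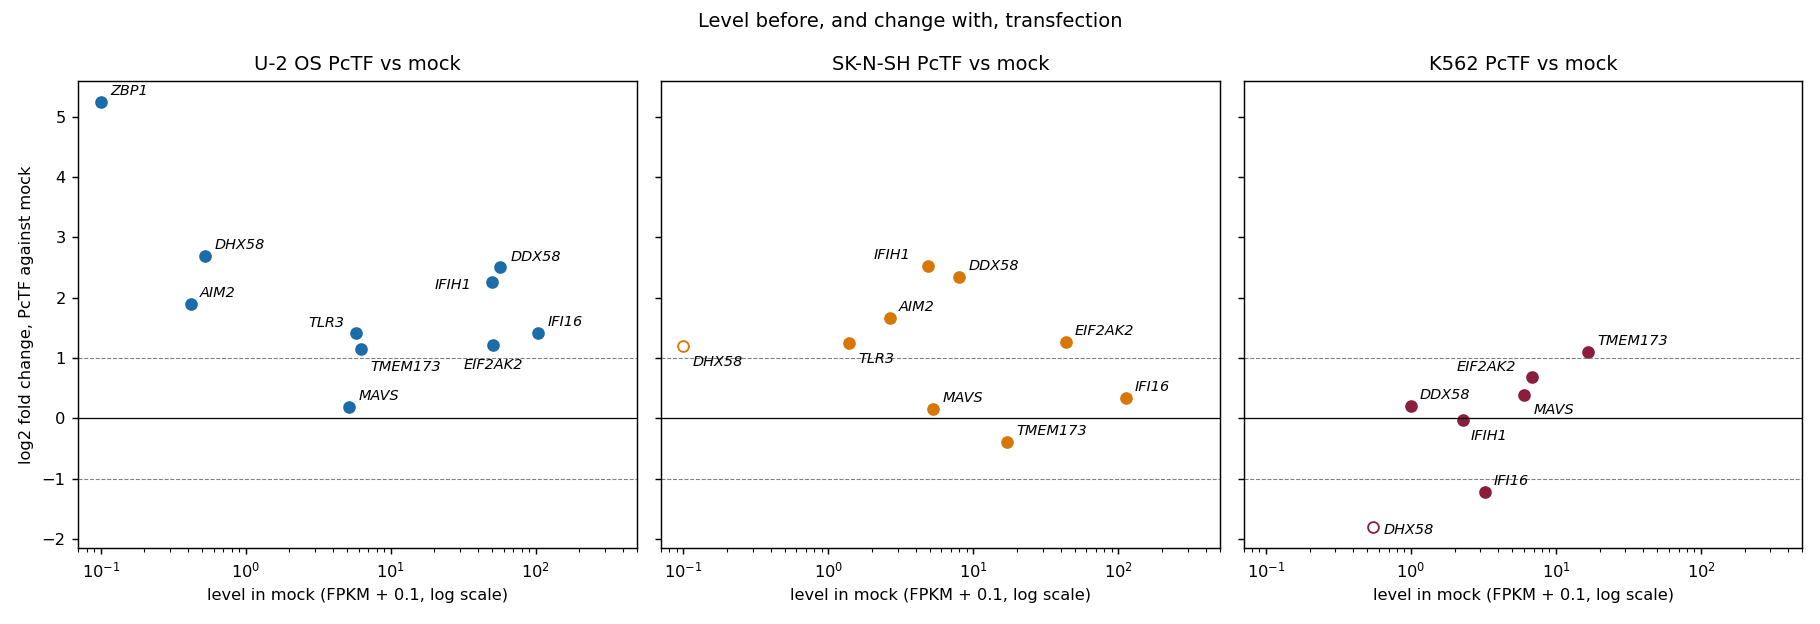
Each point is a sensor, with its mock level on the horizontal axis (FPKM plus 0.1, log scale) and its log2 fold change with PcTF transfection on the vertical axis, in 1 panel per line. Open points are under 1 FPKM in both libraries, dashed lines mark 2-fold, and the points rise to the right in K562 (rho 0.86), while rho in U-2 OS is -0.33 and turns to 0.27 with a pseudocount of 1 FPKM.

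The stable U-2 OS lines were compared through a table in which the PcTF column is the authors' mean of 3 libraries. The labels name 2 U2OS-PcTF libraries, the study's methods speak of 3 replicates, and the column contains the transiently transfected U-2 OS library as the third. The transient value divided by 3 matched the column to 0.01% for 325 genes, and the column lay over 1% below it for just 10 of 16049. The transient library made up 88.2% of the mean for DDX58, 84.5% for IFIH1, 97.4% for DHX58 and 99.0% for ZBP1, but 49.8% for TLR3 and 27.6% for MAVS. Its share was 56.1% for EIF2AK2, 65.8% for IFI16, 92.8% for AIM2 and 71.8% for TMEM173.

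Against U2OS-dTF, the authors' mean was 2-fold higher for 8 of 9 sensors, beside 36.1% of all 13022 genes, and 2-fold lower for none, beside 14.5%. With the transient library taken out, the derived mean of the 2 stable libraries was 2-fold higher for 5 of 7 sensors, beside 37.0% of 12920 genes, and 2-fold lower for none, beside 13.5%. The sensors' median was 1.70 in the derived comparison and that of all genes was 0.58, and genes with 1 FPKM or more in both had a median of 0.39. The 5 were DDX58, IFIH1, TLR3, IFI16 and TMEM173. TMEM173, at 0.350 FPKM in U2OS-dTF, entered only through the PcTF side, as did DHX58 and ZBP1, at 0 there, in the authors' mean.

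IFI16 was at 12.0 FPKM in U2OS-dTF, 71.8 in the derived U2OS-PcTF mean and 139.7 in the authors' mean, a log2 fold change of 2.57 for the derived mean, or 2.18 centred. TMEM173 was at 0.350 FPKM in U2OS-dTF, from 4 reads, 2.70 in the derived mean and 6.37 in the authors' mean (2.64, or 2.25 centred). STING RNA was therefore scarcer in U2OS-dTF than in any other single library. TLR3 was at 1.52, 7.66 and 10.2 FPKM in the same order (2.26, or 1.87 centred).

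DDX58 was at 6.59 FPKM in U2OS-dTF, 21.6 in the derived mean and 122 in the authors' mean (1.70, or 1.31 centred). IFIH1 was at 7.02, 21.9 and 94.3 FPKM (1.63, or 1.24 centred). The helicases thus owed most of their level in the authors' mean to the transient library. EIF2AK2 was at 23.9, 45.5 and 69.1 FPKM (0.92, or 0.53 centred) and MAVS at 5.18, 7.56 and 6.96 FPKM (0.54, or 0.15 centred). DHX58, ZBP1 and AIM2 were at 0 in U2OS-dTF and at 0.0435, 0.0184 and 0.0567 FPKM in the derived mean.

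Mock U-2 OS, which holds no PcTF, also stood above the U2OS-dTF line. In that comparison, chosen after the data were seen, 6 of 7 sensors were 2-fold higher in mock U-2 OS, beside 32.0% of 12660 genes, and none was lower, beside 28.1%. TMEM173, at 0.350 FPKM in U2OS-dTF, entered only through mock U-2 OS. The log2 fold change was 3.09 (2.87 to 3.35) for DDX58, 2.81 (2.56 to 3.11) for IFIH1, 3.10 (2.89 to 3.34) for IFI16 and 3.79 for TMEM173 (2.70 to 6.05 on the reads). It was 1.82 (1.22 to 2.60) for TLR3, 1.07 (0.92 to 1.23) for EIF2AK2 and -0.03 (-0.27 to 0.20) for MAVS. Over 12 reference genes the median log2 fold change of this comparison was -0.80, the opposite sign to the sensors.

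Against mock U-2 OS, likewise chosen after the data were seen, no sensor of 7 was 2-fold higher in the derived U2OS-PcTF mean, beside 27.3% of 13030 genes, and 3 were lower, beside 7.69%. These were DDX58 (-1.39), IFIH1 (-1.18) and TMEM173 (-1.16), or -1.71, -1.51 and -1.48 when centred. The direction of the stable comparison for these genes thus turned with the control line. IFI16 (-0.53), EIF2AK2 (-0.14), TLR3 (0.44) and MAVS (0.57) lay within 2-fold. Mock U-2 OS and U2OS-dTF differ in line, truncated protein, transfection reagent and doxycycline at once, which cannot be told apart.

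**Figure D4:**
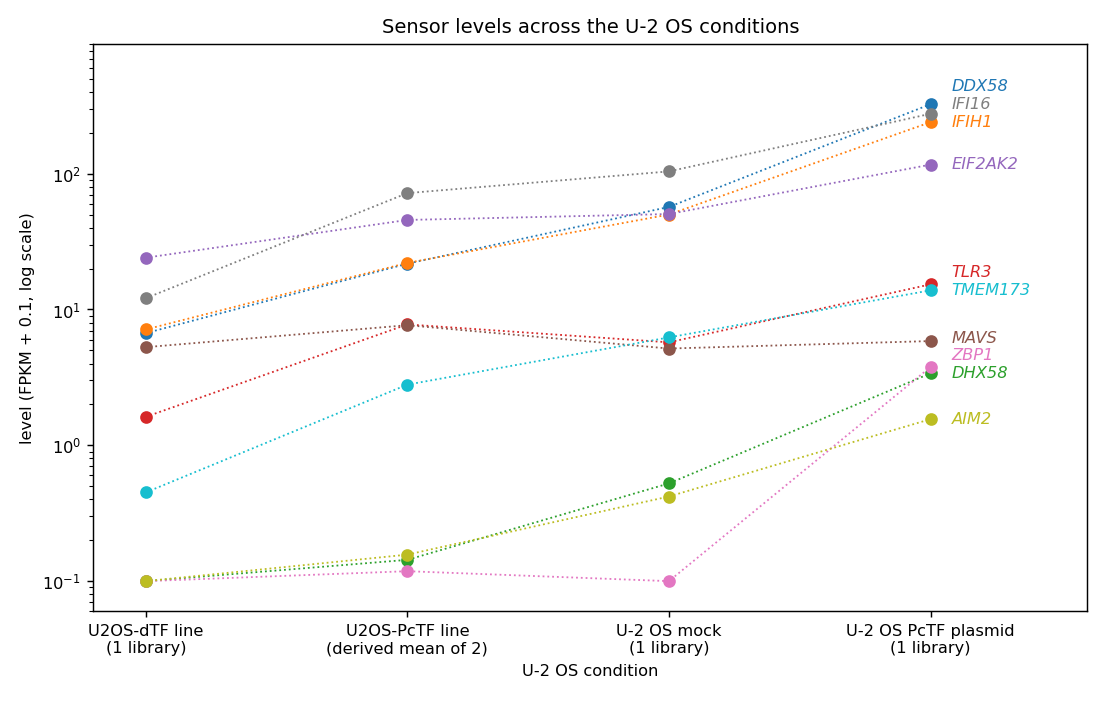
Points give the level of each sensor (FPKM plus 0.1, log scale) in the U2OS-dTF line, the derived U2OS-PcTF mean, mock U-2 OS and PcTF-transfected U-2 OS, and dotted lines only join the points of 1 gene. DDX58 stands at 6.59, 21.6, 56.7 and 324 FPKM from left to right and IFIH1 at 7.02, 21.9, 49.9 and 239, whereas MAVS stays between 5.06 and 7.56 and ZBP1 leaves the floor at the last condition only.

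The rest of the sensing pathway was described with 4 lists by role, to be read against the shares of all genes 2-fold higher and lower, 12.0% and 5.59% in the U-2 OS pair, 5.79% and 2.69% in the SK-N-SH pair and 28.6% and 11.7% in the K562 pair. In each list, genes under 1 FPKM in mock entered only through a higher PcTF level, which favours a call upward. Among 25 other sensors and receptors, 18 had 1 FPKM or more in the U-2 OS pair, 6 were 2-fold higher and none was lower, with a median log2 fold change of 0.14. The largest changes were in the OAS family, whose active enzymes make 2-5A when they bind double-stranded RNA and whose member OASL lacks that activity: OAS2 went from 12.8 to 286 FPKM, OASL from 2.83 to 33.8, OAS1 from 11.2 to 125 and OAS3 from 17.4 to 129. In SK-N-SH 4 of 17 were higher and none lower, namely OAS2 (0.158 to 18.1 FPKM), OAS3 (6.74 to 41.2), DDX60 (4.79 to 29.1) and OAS1 (7.07 to 31.1). In K562 2 of 13 were higher, the helicases DHX36 (5.84 to 16.4 FPKM) and DHX9 (43.9 to 111), and 2 were lower, TLR9 (1.92 to 0.147) and OAS3 (2.96 to 1.07), counts near or below the shares of all K562 genes.

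Adaptors, kinases and E3 ligases, 30 genes, carry the signal onward. In U-2 OS 8 of 22 were 2-fold higher and none lower (median 0.68), led by CASP1, the inflammasome protease, from 1.99 to 17.1 FPKM, TRADD from 0.480 to 4.02, the kinase IKBKE from 1.43 to 5.78 and the TLR3 adaptor TICAM1 from 0.650 to 2.59. In SK-N-SH 6 of 21 were higher and none lower (median 0.45), led by CASP1 from 0 to 2.98 FPKM, TRAF2 from 0.278 to 1.21, the interferon regulatory factor IRF7 from 0.458 to 1.77 and IKBKE from 0.610 to 2.23. Each of these named SK-N-SH genes was under 1 FPKM in mock and entered only through the PcTF library. In K562 5 of 23 were higher and 1 lower (median 0.28), with FADD from 2.20 to 13.7 FPKM, PYCARD, the adaptor of AIM2, from 25.0 to 64.6, TBKBP1 from 1.52 to 4.05 and TANK from 24.2 to 5.88, again with counts below the shares of all K562 genes. PYCARD was at 0 in both U-2 OS libraries and at 0 and 0.611 FPKM in SK-N-SH, the lines in which AIM2 was above 0.

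Limiters of sensing, 18 genes that remove nucleic acid or dampen the signal, included 15 measured in U-2 OS, of which 5 were 2-fold higher and none lower (median 0.68). TREX1, the exonuclease that degrades cytosolic DNA, went from 0.475 to 3.97 FPKM, USP18 from 0.335 to 1.53, SAMHD1, which depletes nucleotides, from 46.1 to 167 and RNASEH2A from 4.36 to 12.9. In SK-N-SH only SAMHD1, at 40.6 and 81.8 FPKM, passed 2-fold among 11 (median 0.39), and ADAR (45.6 and 86.3), DNASE2 (3.09 and 5.03) and DUSP11 (12.3 and 18.6) lay below it. In K562 3 of 13 were higher and 2 lower (median 0.57), among them TREX1 (0.661 to 3.24 FPKM), SOCS1 (0.633 to 1.87), DNASE2 (36.5 to 6.50) and TNFAIP3 (6.57 to 2.14), which is near or below the shares of all K562 genes.

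The outputs were 15 genes of interferons, chemokines and early responders. In U-2 OS 9 of 9 were 2-fold higher, with a median of 2.79, or 2.74 without IL6, which was at 0 in mock. CCL5, a chemokine, went from 14.2 to 1036 FPKM, CXCL10 from 8.49 to 227, ISG15 from 4.87 to 95.4 and IL6 from 0 to 2.38. In SK-N-SH 10 of 11 were higher and none lower (median 2.56), led by MX1 (0.625 to 32.9 FPKM), IL1B (0.149 to 10.3), IL6 (0.589 to 19.1) and IFIT1 (5.11 to 51.9). In K562 3 of 7 were higher and 3 lower (median -0.47), with CXCL10 from 0 to 1.07 FPKM, IFIT3 from 0.0913 to 1.67, MX1 from 0.402 to 2.08 and DDIT3, a stress gene, from 385 to 44.7. Both counts lie above the shares of all K562 genes, 28.6% and 11.7%, but the genes are few and CXCL10, IFIT3 and MX1 were under 1 FPKM in mock.

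The interferon genes in the list of outputs were themselves near or at 0, and other interferon genes were not examined here. IFNB1 reached 0.734 FPKM with PcTF in U-2 OS and was at 0 in the other 6 single libraries, and IL29, IL28A and IL28B were at 0 in all 7. Against U2OS-dTF, the derived stable mean was 2-fold higher for 3 of 7 outputs and lower for 1. These counts are near the shares of all 12920 genes, 37.0% and 13.5%. IFIT1 was at 7.39 and 25.4 FPKM, IFIT2 at 0.262 and 7.03, IFIT3 at 1.15 and 7.36 and MX1 at 3.64 and 0.699. IFIT2 reached 1 FPKM only in the derived mean and MX1 only in U2OS-dTF. CCL5, at 1036 FPKM after transient transfection, was at 0.477 in the derived stable mean and 0 in U2OS-dTF, and CXCL10 at 227, 0.104 and 0 FPKM.

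**Figure D5:**
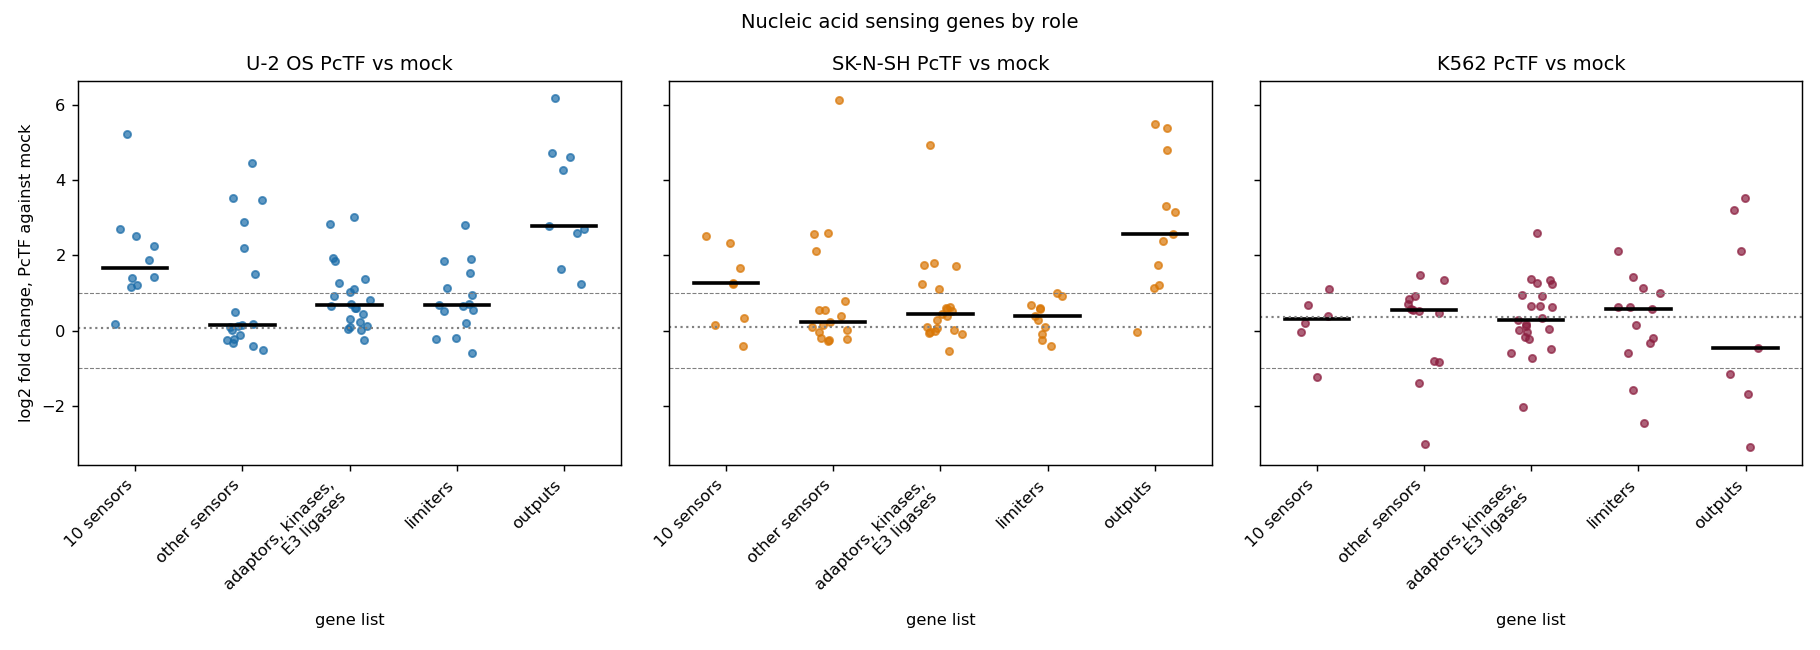
Each point is a gene with 1 FPKM or more in either library of a line, placed by role on the horizontal axis and by log2 fold change of PcTF over mock on the vertical axis, with black bars at list medians, a dotted line at the median of all genes and dashed lines at 2-fold. The sensors and the outputs lie mostly above 2-fold in U-2 OS (medians 1.66 and 2.79) and SK-N-SH (1.26 and 2.56), and not in K562 (0.30 and -0.47).

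The sensors' levels were also compared with each other over the 7 single libraries. DDX58 followed IFIH1 (Pearson's r of log2 levels 0.98), TLR3 (0.97), EIF2AK2 (0.93) and IFI16 (0.90). MAVS and TMEM173 did not follow them, with r of -0.47 and -0.11 to DDX58 and 0.58 to each other. These values describe 7 libraries of 3 cell origins that share depth, line and table, and 8 sensors entered, those with 1 FPKM or more in at least 3 libraries.

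Among 12135 genes ranked by the same measure, the genes most like DDX58 were DTX3L (0.99), ZMYM6NB and IFIH1. EIF2AK2 lay nearest to SAMD9 (0.99), BTN3A2 and BIN1, and TLR3 to HEATR6 (0.99), ZNF572 and TNFRSF11B. For the DNA arm, IFI16 lay nearest to SNAP25, CSGALNACT2 and CTBS, AIM2 to ESM1, TNFAIP6 and ERAP2, and TMEM173 to DCTD, HRSP12 and DET1. MAVS lay nearest to SIRT2, TERF2 and XPO6.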

How the data were processed

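RNA-seq of 3 established cell lines and 2 stable derivatives was analysed, 9 of 10 libraries. The remaining library, U-2 OS with the dTF plasmid, has no column in the 4 tables and was not analysed here. The FPKM values were made by the authors with Cuffdiff from 50-base single-end reads of amplified, unstranded cDNA, trimmed and aligned to hg19 by TopHat2 2.1.0 and Bowtie2, with outdated gene symbols removed. The submitters' processing notes also list FastQC, Cufflinks and HTSeq. Each table holds 23245 genes, 2 FPKM columns and the authors' own fold changes, p-values and q-values, none of which were used. The K562 table may differ from the version plotted in the study, which could not be settled. Coordinates of genes are as deposited, counted from 1.

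Reads were recovered from FPKM, using 643 genes of a single exon, whose low values step by 1 read (95.7% to 100% whole within 3%), with the Cuffdiff default fragment of 200 bp (SD 80 bp). Intervals are exact 95% Clopper-Pearson intervals on read ratios. The derived stable mean is 3 times the authors' mean minus the transient library, divided by 2. Genes with 1 FPKM or more in either group were compared as log2(FPKM + 0.1), which understates changes of low genes, and called at 2-fold with no test. Python 3.11.15, numpy, pandas and scipy were used, and depth, calls and intervals were tested on simulated data.

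The sensors and lists were chosen with earlier results of these data known. Named genes are the 10 sensors, CBX8, GAPDH, ACTB, CHMP2A, up to 4 genes per list and line with the largest change, the listed interferons, and the 3 most similar genes per sensor (for IFIH1 not reported here). RUNX2, COL6A3, IFIT1, IFIT2, IFIT3, CCL5, CXCL10, MX1 and PYCARD were also named in places after their values were seen. Alternatives were other pseudocounts, filters, thresholds, centring, scaling and, added after seeing the data, mock U-2 OS as control of the stable line.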

Additional observations from a re-analysis of the deposited data

Results flagged for a closer look

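IFI16 moved in opposite directions between lines, at a log2 fold change of -1.22 in K562 against 1.41 in U-2 OS or 0.33 in SK-N-SH, with each counting interval clear of 0. The K562 value rests on 39 and 25 reads, and the difference between lines was not tested, since each line has 1 library per condition.

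TMEM173 was higher with PcTF in U-2 OS (1.15) and K562 (1.10) and lower in SK-N-SH (-0.40), again with each counting interval clear of 0. This difference was not tested either, and the SK-N-SH value is within 2-fold.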

How the results depend on the processing

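At a 3-fold threshold the sensors called higher numbered 3 in SK-N-SH and 5 in U-2 OS, while K562 had 0 higher and 0 lower. The share of all genes at 3-fold is not given here, so these counts only show how the calls depend on the threshold. Among those of U-2 OS, DHX58, ZBP1 and AIM2 reached 1 FPKM only in the PcTF library, AIM2 from 2 and 7 reads. The K562 count higher was 0 when fold changes were centred on the median gene, and its count lower was 0 with a pseudocount of 1 FPKM and 2 with no filter or a filter of 0.3 FPKM, where DHX58 at 5 and 1 reads enters. With mock U-2 OS in place of U2OS-dTF, an alternative chosen after seeing the data, the authors' mean was higher for 3 sensors, and the derived stable mean was higher for 0 and lower for 3. For the derived mean the shares of all genes were 27.3% and 7.69%, and for the authors' mean none is given here. Those 3 higher were DDX58, DHX58 and ZBP1, with 88.2%, 97.4% and 99.0% of the mean from the transient library. DHX58 and ZBP1 reached 1 FPKM only in that mean. Sensors highest in mock U-2 OS numbered 4 as deposited and 7 after scaling to 12 reference genes, whose geometric mean differed from 52.9 FPKM in mock U-2 OS to 101 in mock K562. With a pseudocount of 1 FPKM the rank correlation of mock level and change was 0.27 in U-2 OS, a reversal, -0.10 in SK-N-SH and 0.75 in K562. Apart from the construction of each alternative, the cause was not tested. The other 66 recomputed counts stayed within 1.5 times, and of the single-gene fold changes 158 stayed within their counting interval (or, for the authors' and derived means, within 0.5), 26 moved and none reversed among those called. Leaving out a replicate was not possible, since the 2 stable U2OS-PcTF libraries enter only through a mean and every other group is 1 library. No paired analysis was possible because no other group has a second numbered library to pair with these 2. Depth of about 4.27e+06 reads or more leaves DHX58, ZBP1 and AIM2 undecided in most libraries.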
